A study of Homo sapiens with 23 samples.

Results

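The genes described here were 10 transcription factors that specify the germ layers and early lineages of the embryo (GATA4, GATA6, SOX17, TBXT, EOMES, MIXL1, PAX6, FOXA2, GSC and CDX2). They were chosen by name, out of 36085 genes with transcripts in the RNA files, and all 10 had transcripts there. The question was whether doxycycline moved the cells toward a lineage. The cells were NCCITs, a human embryonal carcinoma line that the labels call stem-like. SCi-NCCITs are NCCITs that carry a doxycycline-inducible dCas9-KRAB, a catalytically dead Cas9 fused to a repressive KRAB domain. They also carry a pair of sgRNAs against SVA (SINE-VNTR-Alu) transposons. Both were inserted by piggyBac transposition and kept under drug selection. The paper states that the sgRNAs also target the LTR5Hs transposon family. RNA was sequenced from untreated SCi-NCCITs (3 libraries) and from SCi-NCCITs given 2 µg/mL doxycycline for 72 hours (3 libraries). Peaks of OCT4 came from 1 library per condition, and those of YY1 and of H3K9me3 from 2 libraries per condition. H3K9me3 was also measured in 1 library of NCCITs without the engineering. No library came from cells that received doxycycline without the sgRNAs or without dCas9-KRAB. The drug, the repression of SVAs and that of LTR5Hs therefore cannot be told apart. The labels do not say whether the libraries of a condition came from separate cultures, so the p-values measure the spread between these libraries, which may be technical.

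The germ layers arise at gastrulation, when pluripotent epiblast cells pass through the primitive streak and become mesoderm or definitive endoderm, while cells that do not enter the streak become ectoderm. NODAL, WNT and BMP signals switch on the T-box factors TBXT and EOMES and the homeobox factors MIXL1 and GSC in the streak. GATA4, GATA6, SOX17 and FOXA2 then specify endoderm, PAX6 marks neural ectoderm, and CDX2 acts in trophectoderm and later in the posterior body and intestine. In pluripotent cells, which express OCT4, SOX2 and NANOG, these genes are mostly at a low level.

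The RNA libraries held 14683468, 31905915 and 43443469 estimated counts on genes without doxycycline, and 44680610, 47862394 and 46639141 with it. The first library without doxycycline was therefore the shallowest, and 1 count was worth 0.0682 CPM (counts scaled to library size) there, against 0.0209 to 0.0315 CPM elsewhere. The cells expressed the markers that define pluripotent cells. POU5F1, which encodes OCT4, had a mean of 194.7 TPM (a scale corrected for transcript length as well as library size) over the 6 libraries, and SOX2 had 321.1 TPM.

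All 10 factors were at low levels. On the TPM scale their means over the 6 libraries ran from 1.99 TPM for MIXL1 to 0.0208 TPM for TBXT, and 40.7% of protein-coding genes had a lower mean than MIXL1. Without doxycycline, MIXL1 had the highest level of the 10 (1.65 ± 0.171 TPM, SD, n = 3) and did not overlap with the next gene, CDX2 (0.854 ± 0.177 TPM, n = 3). From CDX2 downwards, through PAX6, GSC, GATA6, EOMES and GATA4 to FOXA2 (0.148 ± 0.0606 TPM, n = 3), each gene overlapped with its neighbour in the order, so these levels were not distinguishable step by step. TBXT and SOX17 lay below, with 0 to 0.0582 TPM and 0 to 0.0405 TPM. With doxycycline GATA6 moved from the fifth rank to the second (1.05 ± 0.0131 TPM, n = 3), where it overlapped with CDX2 (0.926 ± 0.238 TPM, n = 3). GATA4 and FOXA2 changed places, as did TBXT and SOX17, and in each of these pairs the values overlapped in both conditions.

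GATA6 and MIXL1 were called higher with doxycycline, and none of the 8 factors tested was called lower. The call of MIXL1 depended on the tool and on single libraries. GATA6, a zinc finger factor of primitive and definitive endoderm and of the heart, rose 2.75-fold (95% interval 1.98 to 3.81). MIXL1, a homeobox factor of the primitive streak, rose 1.46-fold (95% interval 1.19 to 1.80). The other 6 factors that passed the filter on low counts had fold changes from 1.12 to 1.73 and did not pass the test. In simulated counts at such levels, the pipeline recovered 30.8% of genes given a log2 change of 1, and 4 of its 20 calls were false. In all, 8 of the 10 passed the filter, and SOX17 and TBXT did not. With edgeR's quasi-likelihood test and an adjusted p under 0.05, 17.5% of the 16371 genes tested were called. Of these genes 8.97% were called higher and 8.48% lower, against 2 and 0 of the 8 factors tested. No factor was lower at an unadjusted p under 0.05 either, and DESeq2 and limma also called 0 of them lower. Among the 3745 genes tested with a mean between those of the lowest and the highest factor (0.256 to 2.70 CPM), 8.14% were called and 3.58% were called higher.

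**Figure D1:**
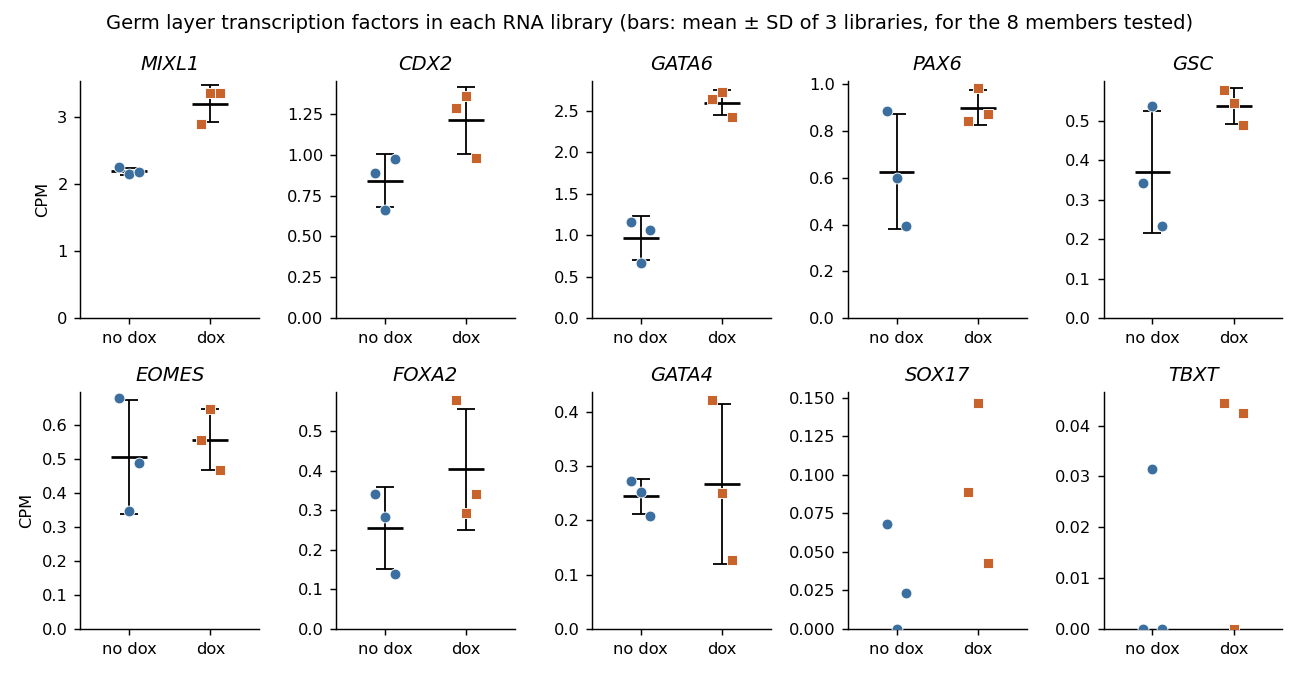
CPM of each factor in each RNA library (points), with the mean and SD of 3 libraries as a line and bar for the 8 factors that were tested, on axes that start at 0 and differ between panels. Every doxycycline library lies above every library without it for GATA6 (2.42 to 2.72 against 0.662 to 1.16 CPM), MIXL1 and CDX2, and the groups overlap for the other 7.

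GATA6 (ENSG00000141448, chr18:19749550-19782491 on hg19, plus strand) had 17, 21 and 46 estimated counts without doxycycline and 119, 130 and 114 with it. These were 1.16, 0.662 and 1.07 CPM against 2.64, 2.72 and 2.42 CPM. All libraries with doxycycline were above all libraries without it, and the gap between the groups was larger than the range within either. On the TPM scale the values were 0.512, 0.311 and 0.474 against 1.05, 1.04 and 1.06 TPM (0.432 ± 0.107 and 1.05 ± 0.0132, SD, n = 3), and the groups did not overlap on that scale either. The log2 fold change was 1.46 ± 0.209 (SE), with an adjusted p of 0.00194 by edgeR. Its canonical coding transcript held 84.7% of the gene's counts. The lncRNA GATA6-AS1 is annotated on the opposite strand over GATA6. The library kit was directional, but the strand setting of the quantification is not given in the sources used here, so reads of such antisense partners cannot be set apart with certainty.

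MIXL1 (ENSG00000185155, chr1:226411319-226414761, plus strand) had 33, 68 and 94 estimated counts without doxycycline and 130, 160 and 158 with it. The CPM were 2.25, 2.15 and 2.18 against 2.89, 3.35 and 3.36. The libraries without doxycycline lay close together and below all those with it. The log2 fold change was 0.55 ± 0.134 (SE), with an adjusted p of 0.0227 by edgeR. The call rested on single libraries and on the tool. Its adjusted p was 0.0805 without the second and 0.0754 without the third library without doxycycline, 0.0882 without the second and 0.0652 without the third library with doxycycline, and 0.0677 by DESeq2, 0.0921 on counts scaled from TPM and 0.0971 by limma on log2(TPM + 1). The fold change kept its direction in all of them, and adjusted p over all alternatives ran from 0.0184 to 0.0971. The call of GATA6 was kept in all alternatives, with adjusted p from 3.2e-05 to 0.0304.

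The other streak factors did not pass the test. EOMES (ENSG00000163508, chr3:27757440-27764202, minus strand), a T-box factor required for definitive endoderm, had 10, 11 and 21 counts without doxycycline and 25, 31 and 22 with it. As CPM these were 0.682, 0.347 and 0.488 against 0.555, 0.649 and 0.468, and the groups overlapped (log2 fold change 0.22 ± 0.305 (SE), adjusted p = 0.663 by edgeR). GSC (ENSG00000133937, chr14:95234560-95236450, minus strand), the organizer gene goosecoid, had 5, 17 and 10 counts without doxycycline and 26, 26 and 23 with it, or 0.341, 0.536 and 0.232 against 0.578, 0.544 and 0.489 CPM. The second library without doxycycline lay within the range of the treated ones (log2 fold change 0.56 ± 0.343, adjusted p = 0.298). TBXT (brachyury, ENSG00000164458, chr6:166571144-166582188, minus strand), the defining factor of nascent mesoderm, had 0, 1 and 0 counts without doxycycline and 2, 0 and 2 with it. That was 1 count in all against 4, a ratio of 2.56 with an exact 95% counting interval of 0.253 to 126, so a change in TBXT was not detectable at this depth.

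Of the endoderm factors tested, only GATA6 was called higher. FOXA2 (ENSG00000125798, chr20:22561636-22566093, minus strand), a forkhead factor of endoderm and the node, had 5, 9 and 6 counts without doxycycline and 26, 14 and 16 with it. As CPM these were 0.341, 0.284 and 0.139 against 0.578, 0.293 and 0.340, and the groups overlapped. Its log2 fold change of 0.79 ± 0.441 was the largest after GATA6, with an adjusted p of 0.249 by edgeR and a 95% interval for the fold from 0.871 to 3.45. GATA4 (ENSG00000136574, chromosome 8), which acts with GATA6 in endoderm and heart, had 4, 8 and 9 counts against 19, 12 and 6. Its CPM of 0.273, 0.252 and 0.209 without doxycycline lay inside the 0.422, 0.251 and 0.128 of the treated libraries, and its direction was not fixed (log2 fold change 0.16 ± 0.477, and −0.32 without the first library with doxycycline). SOX17 (ENSG00000164736, chromosome 8), which is needed for definitive endoderm and for human germ cells, had 1, 0 and 1 counts without doxycycline and 4, 7 and 2 with it. The ratio of 13 to 2 counts, scaled for depth, was 4.16 with an exact 95% counting interval of 0.941 to 37.9. Without a filter on low counts its adjusted p was 0.304 by edgeR.

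PAX6 (ENSG00000007372, chr11:31806327-31839509, minus strand), a paired-box factor of neural ectoderm and eye, had 13, 19 and 17 counts without doxycycline and 38, 47 and 41 with it. The CPM were 0.886, 0.599 and 0.395 against 0.844, 0.984 and 0.872, so the first and shallowest library without doxycycline lay among the treated ones. The log2 fold change was 0.64 ± 0.295 with an adjusted p of 0.170 by edgeR. The counts of PAX6 were spread over many transcripts, some with retained introns, and the largest held 13.8% of them. CDX2 (ENSG00000165556, chr13:28535055-28543452, minus strand) had 13, 21 and 42 counts against 58, 65 and 46, which gave 0.886, 0.662 and 0.976 against 1.29, 1.36 and 0.978 CPM. The groups did not overlap, by the narrow gap between 0.976 and 0.978, and the adjusted p was 0.162 (log2 fold change 0.52 ± 0.236). On the TPM scale the groups overlapped. The canonical coding transcript alone was at 0.253, 0.143 and 0.249 against 0.376, 0.341 and 0.269 TPM, and a transcript of 581 nt annotated without a coding sequence was at 0.397, 0.810 and 0.710 against 0.389, 0.857 and 0.544 TPM. Over all genes tested, 19.2% were higher in every treated library than in every untreated one on the CPM scale, against 3 of the 8 factors tested.

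**Figure D2:**
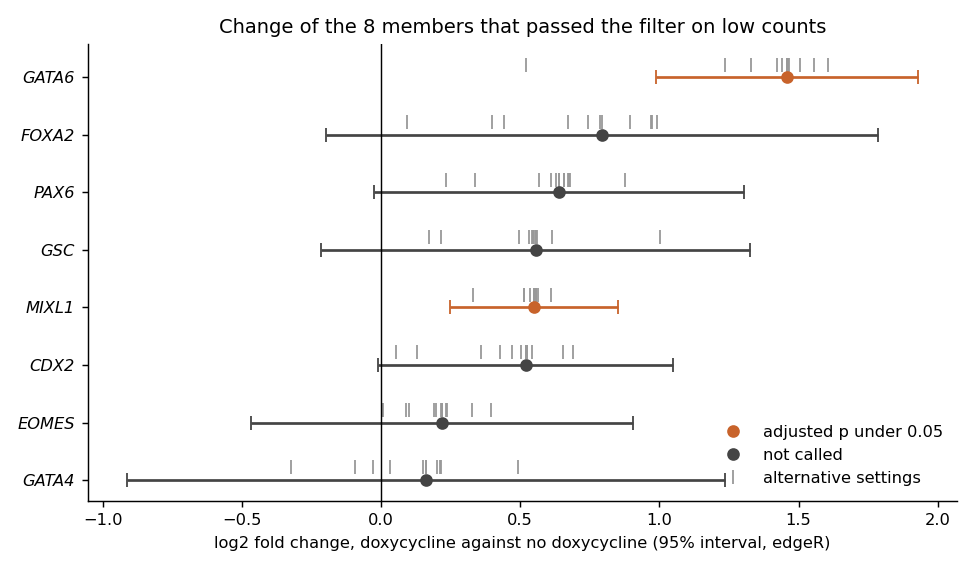
Log2 fold change (doxycycline against no doxycycline, edgeR) of the 8 factors tested, with 95% intervals, and short grey marks for the alternative settings. GATA6 stands apart at 1.46 and MIXL1 at 0.55 has the narrowest interval. MIXL1 is coloured as called here, but its call was lost in 7 of the 13 alternatives, and the intervals of the other 6 factors include 0. The outlying grey mark of GATA6 is limma on log2(TPM + 1), where a pseudocount of 1 shrinks the change of low genes.

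By edgeR the 8 fold changes tested were all above 0, with a median log2 of 0.55, where the median over all genes tested was 0.00. Over genes in the same CPM range the median was −0.04, and 46.6% were above 0. The median of the factors was 0.58 by DESeq2 and 0.13 by limma on log2(TPM + 1), and GATA4 was below 0 by limma, with the replicate number as a block, and without the first library with doxycycline. A list of paralogs of the factors served as a comparison and held none of MIXL1. Over all genes tested edgeR called 17.5%. Of 26 paralogs, among them GATA2, GATA3, SOX7, TBX3 and PAX3, 18 were tested and 0 were called by edgeR, and 0 by DESeq2 or limma, with 14 above 0 and a median log2 of 0.22. PAX3, a paired-box factor of neural crest and somite, came to 0.34 ± 0.128 (adjusted p = 0.100), and TBX1, the paralog with the highest TPM, to 0.07 ± 0.076. PAX3 was the 1 paralog with an unadjusted p under 0.05 by edgeR.

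GATA6 followed a profile that many genes shared. Over the 6 libraries, the genes whose log2 CPM was most like that of GATA6 were MYDGF (Pearson r = 0.9982) and LAMTOR2 (r = 0.9973), and 572 genes had an r above 0.95. For MIXL1 these were PBX3 (r = 0.9952) and OXR1 (r = 0.9926), with 288 genes above 0.95. With 6 libraries and many genes to choose from, such a highest r was also reached by factors without a clear step between the conditions. For the other 6 factors the highest r ran from 0.9857 for PAX6 with EPDR1 to 0.9985 for CDX2 with MED18.

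The counts of each list below stand beside 8.97% of all genes tested called higher and 8.48% called lower. Shares at the expression level of each list were not computed. Of the primitive streak and mesendoderm list, 8 of 14 genes were tested and 1 was called, NKX1-2, a homeobox gene of the caudal epiblast, which fell (log2 fold change −0.35 ± 0.099 (SE), adjusted p = 0.0409 by edgeR). DESeq2 and limma called 0 genes of this list. SP5, a WNT target and its most abundant gene, was at 6.86 ± 3.91 and 4.76 ± 0.274 TPM (SD, n = 3), and HES7, the one with the highest fold change (1.08 on the log2 scale, adjusted p = 0.117), did not pass. Of the endoderm list, 9 of 16 genes were tested, and LAMA1, a laminin chain, fell (log2 fold change −0.30, adjusted p = 0.0174 by edgeR), a call that limma and counts scaled from TPM did not make. COL4A1, the most abundant gene of the list, was at 17.4 ± 2.01 and 19.4 ± 1.96 TPM (SD, n = 3). The median log2 was 0.17 for the endoderm list, and for the streak list 0.08 by edgeR and −0.19 by DESeq2, which gave a value to 13 genes.

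In the mesoderm list 14 of 17 genes were tested, 2 rose and 1 fell, with a median log2 of 0.05 by edgeR and −0.11 by DESeq2. FOXC1, a forkhead factor of paraxial mesoderm, rose from 44.04 ± 4.22 to 87.4 ± 4.65 TPM (SD, n = 3; log2 fold change 1.03, adjusted p = 4.49e-05 by edgeR). SNAI1, which drives the loss of epithelial adhesion at gastrulation, rose by 0.45 on the log2 scale (adjusted p = 0.0176). KDR, a receptor of VEGF, fell from 0.963 ± 0.146 to 0.509 ± 0.0798 TPM (SD, n = 3; −0.82 on the log2 scale, adjusted p = 0.0155 by edgeR). On counts scaled from TPM 0 genes of this list were called lower, and by limma 1 rose and 1 fell. HAND1, the most abundant gene of the list, was at 124.2 ± 19.97 and 116.4 ± 6.00 TPM (SD, n = 3).

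In the neural and surface ectoderm list 16 of 21 genes were tested and 4 rose, against 8.97% of all genes tested, with a median log2 of 0.25. They were the neural progenitor filament NES (0.47, adjusted p = 0.0119), the homeobox gene DLX5 (0.48, adjusted p = 0.0309), the forebrain factor OTX2 (0.23, adjusted p = 0.0393) and the neuronal factor NEUROG2 (0.98, adjusted p = 0.0417), all by edgeR. NEUROG2 was at 0.243 ± 0.0546 and 0.443 ± 0.0684 TPM (SD, n = 3), as low as the 10 factors themselves. OTX2 is also expressed in pluripotent cells. By DESeq2 3 genes of this list rose and 1 fell, and by limma 1 rose. TFAP2A, the most abundant gene of the list, was at 462.9 ± 39.8 and 394.4 ± 24.1 TPM without passing the test. Of the trophoblast list 8 of 12 were tested and 3 fell, TFAP2B (−1.82, adjusted p = 9.02e-05), TFAP2C (−0.29, adjusted p = 0.00774) and ERVW-1 (−0.51, adjusted p = 0.00839), the envelope gene syncytin. Over all genes tested 8.48% were called lower. TEAD4, the most abundant gene of that list, was at 24.8 ± 1.28 and 25.4 ± 0.703 TPM (SD, n = 3).

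Of the 16 pluripotency genes, all were tested and 8 fell, against 8.48% of all genes tested, with a median log2 of −0.23. The 4 with the lowest p were TDGF1, the NODAL co-receptor (186.9 ± 4.45 to 81.1 ± 5.12 TPM, SD, n = 3), L1TD1, NANOG (47.0 ± 6.64 to 31.1 ± 1.68 TPM) and DNMT3B. Their log2 fold changes were −1.13, −0.62, −0.57 and −0.60. Limma and counts scaled from TPM called 6 falls in this list. The share of genes called lower at levels this high was not computed. POU5F1 (206.5 ± 38.6 and 182.8 ± 17.7 TPM, SD, n = 3) and SOX2 (347.6 ± 26.4 and 294.5 ± 31.6 TPM, n = 3) did not pass, with adjusted p of 0.528 and 0.132 by edgeR. In bulk libraries, fewer cells that express a gene and less RNA per cell cannot be told apart, here and for the rises of GATA6 and MIXL1.

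Among the signals that act on these factors, the WNT list had 5 falls in 15 genes tested, with a median log2 of −0.27. Limma and counts scaled from TPM called 4 falls there, and over all genes tested edgeR called 8.48% lower. WNT5A, a ligand, fell by 0.84 on the log2 scale (adjusted p = 0.000386 by edgeR), and WNT8A, TCF7, CTNNB1 and AXIN2 fell by 0.64, 0.45, 0.31 and 0.27. The BMP list had 2 rises in 13 genes tested (median −0.01), the antagonist CHRD by 0.99 and the target ID3 by 0.54, while ID1, the most abundant of them, was at 382.6 ± 32.0 and 370.1 ± 25.7 TPM (SD, n = 3). Of NODAL and activin genes, 12 of 14 were tested, CFC1 rose by 0.67 and GDF3 fell by 0.34 (median −0.02), while NODAL itself was too low to be tested, with 30 counts over the 6 libraries. Of 13 FGF genes tested, ETV5 rose by 0.20 (median 0.08 by edgeR and −0.09 by limma on log2(TPM + 1)), and FGFR1, the most abundant, was at 477.8 ± 52.1 and 436.4 ± 32.6 TPM. Limma and counts scaled from TPM called 0 genes of the FGF list.

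Of 8 fibroblast and stromal markers THY1 rose by 0.88 and PRRX1 and POSTN fell by 0.85 and 0.46 (log2), COL3A1 was the most abundant at 48.6 TPM, and the summed level of the list was 92.0 to 116.9 TPM without and 104.6 to 119.5 TPM with doxycycline. Limma and counts scaled from TPM called 1 fall in the stromal list. Of 6 blood cell markers 2 were tested and 0 were called by edgeR, DESeq2 or limma, with 1 at an unadjusted p under 0.05 by edgeR (CD68, 0.0243), and the sums were 5.32 to 6.01 and 6.11 to 6.84 TPM. The 8 germ cell genes summed to 33.8 to 40.4 TPM without and 27.1 to 30.3 TPM with doxycycline. Most of each sum was KLF4, at 25.38 to 29.49 TPM without and 19.4 to 22.09 TPM with doxycycline. The sums therefore largely followed KLF4 and do not describe the list as a whole. Of 5 tested KLF4 and MAEL fell by 0.38 and 1.40, and DAZL, PRDM1 and DPPA3 were not called. The part of these genes in the rises of GATA6 and MIXL1 was not tested.

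OCT4 peaks lay near most of the factors in untreated cells. Without doxycycline 8 of the 10 factors had an OCT4 peak that overlapped the window of 20 kb on each side of the transcription start site (TSS). They held 17 peaks in all, and 61.2% of protein-coding genes had such a peak. With doxycycline 6 of the 10 had one, 8 peaks in all, against 26.3% of protein-coding genes. The whole OCT4 list also shrank, from 50775 to 23352 peaks. Each condition had 1 OCT4 library, so the difference has no replicate check and no test. Of the 17 peaks, 8 overlapped an OCT4 peak with doxycycline, where 40.1% of all untreated OCT4 peaks did, and all 8 treated peaks lay on an untreated one. The 8 peaks that were kept had fold enrichments of 8.31 or more over background (median 11.4), and the 9 that were not called with doxycycline had a median of 5.4. Of the 17 peaks, 11 overlapped a YY1 peak in at least 1 untreated library and 7 in both, and 0 overlapped an H3K9me3 peak of an untreated library. The overlaps with YY1 and H3K9me3 were not computed over all untreated OCT4 peaks, so they cannot be called particular to the factors.

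The sequence is given here for the summits with the highest enrichment and for the strongest of those within 1 kb of a TSS, since OCT4 reads DNA through its octamer, often beside a SOX site. The summits at GATA6 and MIXL1 were added after their values were seen. Each stretch is 151 bases of hg19 (75 on each side of the summit of the untreated peak), plus strand, and capitals mark a match to the octamer ATGCAAAT or the SOX site CATTGT on either strand. The YY1 site AAGATGGCG was searched too and had 0 matches. The GSC summit at 158 bp is described without its sequence.

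CDX2 intron, chr13:28540220-28540370, summit 3157 bp downstream of the TSS, fold enrichment 26.6: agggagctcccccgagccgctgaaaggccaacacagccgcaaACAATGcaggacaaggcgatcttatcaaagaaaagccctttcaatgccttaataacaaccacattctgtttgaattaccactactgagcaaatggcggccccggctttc

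GSC upstream, chr14:95247455-95247605, summit 11080 bp upstream of the TSS, fold enrichment 23.3: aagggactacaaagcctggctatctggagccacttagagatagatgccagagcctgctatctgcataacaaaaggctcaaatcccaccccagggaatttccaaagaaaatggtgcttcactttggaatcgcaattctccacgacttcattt

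TBXT promoter, chr6:166581405-166581555, summit 141 bp upstream, fold enrichment 11.8: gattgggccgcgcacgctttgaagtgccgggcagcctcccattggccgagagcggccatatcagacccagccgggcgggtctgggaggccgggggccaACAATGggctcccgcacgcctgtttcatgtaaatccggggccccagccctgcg

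CDX2 promoter, chr13:28543517-28543667, summit 140 bp upstream, fold enrichment 8.31: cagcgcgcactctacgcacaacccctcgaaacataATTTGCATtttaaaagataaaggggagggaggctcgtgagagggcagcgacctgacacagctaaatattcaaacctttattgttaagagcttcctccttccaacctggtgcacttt

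EOMES coding exon, chr3:27763366-27763516, summit 373 bp downstream, fold enrichment 5.28: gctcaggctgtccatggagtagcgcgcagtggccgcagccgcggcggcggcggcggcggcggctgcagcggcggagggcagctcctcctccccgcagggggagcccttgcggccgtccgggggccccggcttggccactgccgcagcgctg

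GATA6 intron, chr18:19758390-19758540, summit 8915 bp downstream, fold enrichment 8.45: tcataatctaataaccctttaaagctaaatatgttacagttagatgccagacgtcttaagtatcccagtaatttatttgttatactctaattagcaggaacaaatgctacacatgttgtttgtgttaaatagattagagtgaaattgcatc

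MIXL1 upstream, chr1:226401028-226401178, summit 10262 bp upstream, fold enrichment 10.9: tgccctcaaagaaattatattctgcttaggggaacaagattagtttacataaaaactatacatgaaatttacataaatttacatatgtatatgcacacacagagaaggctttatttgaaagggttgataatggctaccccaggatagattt

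Of these 7 stretches, 1 held the exact octamer, at the CDX2 promoter, and 2 held the SOX site, in the CDX2 intron and at the TBXT promoter. Over 50582 untreated OCT4 summits on the same chromosomes, 9.01% of windows of this length held the octamer and 15.4% the SOX site, against 0.535% and 3.50% of windows centred on the TSS of protein-coding genes. The YY1 site was in 0.217% of OCT4 windows and in 2.43% of TSS windows. The absence of a match says only that these letters are not in the window. GC content ran from 30.5% at the GATA6 summit to 80.1% in the EOMES exon.

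The streak factors differed in where OCT4 lay. TBXT, which was all but silent, had its OCT4 peak at the promoter, in an exon of the antisense lncRNA LNCDAT, with a fold enrichment of 11.8 without and 10.6 with doxycycline. GSC had 4 untreated peaks, and its strongest, 11.1 kb upstream, was at 23.3 without and 25.9 with doxycycline. The GSC peak 3128 bp upstream was at 10.4 and 6.93, and those at 158 and 5567 bp downstream were called only without doxycycline. EOMES had a peak 6293 bp upstream (12.05 and 5.02), where a YY1 peak lay in all 4 YY1 libraries, and the one in its coding exon was called only without doxycycline. MIXL1 had no peak within 1 kb of its TSS. Its peak 10262 bp upstream was at 10.9 and 4.59, and that 12731 bp upstream (4.14) was called only without doxycycline.

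GATA6 was the only endoderm factor with an OCT4 peak in both conditions. It lay in an intron, with a fold enrichment of 8.45 without and 4.45 with doxycycline. FOXA2 had 1 peak, 17082 bp downstream of the TSS in an intron of the lncRNA LINC00261 (5.66), which was called only without doxycycline. GATA4 and SOX17 had none within 20 kb in either library, and the nearest untreated summits were 87921 and 34350 bp away. PAX6 had 3 untreated peaks, at 74, 9068 and 12808 bp upstream of its canonical TSS (4.77, 4.99 and 10.4), and none with doxycycline. The canonical PAX6 transcript had a mean of 0.0 counts. Other PAX6 transcripts start further upstream, and the peak at 74 bp lay in a PAX6 intron. CDX2 kept its intronic peak (26.6 and 19.1) and its promoter peak (8.31 and 4.71). Within 1 kb of the TSS, 5 of the 10 factors had an OCT4 peak without doxycycline and 2 with it (TBXT and CDX2), against 33.3% and 3.88% of protein-coding genes. GATA6 and MIXL1, which rose, had 1 shared peak each, and CDX2 and GSC, which did not pass the test, had the strongest.

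**Figure D3:**
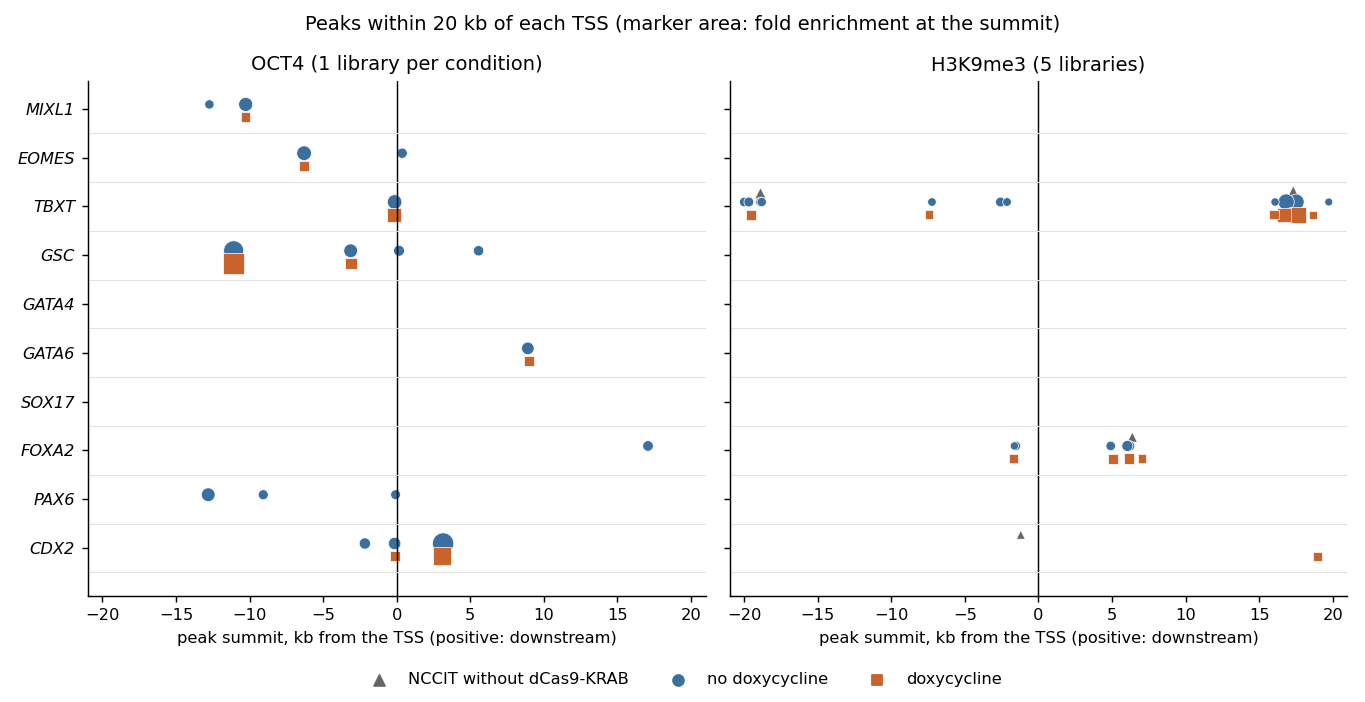
Position of OCT4 (left) and H3K9me3 (right) peak summits within 20 kb of the TSS of each factor, in kb with downstream positive, for NCCITs without dCas9-KRAB (grey triangles, H3K9me3 only), SCi-NCCITs without doxycycline (blue circles) and with it (orange squares). Marker area grows with fold enrichment. OCT4 peaks of TBXT, GSC, CDX2, EOMES, MIXL1 and GATA6 recur with doxycycline, and H3K9me3 appears at TBXT, FOXA2 and CDX2 alone.

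H3K9me3, the repressive mark that KRAB recruits, was near few of the factors at a distance of 20 kb. A peak within 20 kb was found at 3 of the 10 factors in NCCITs without dCas9-KRAB, and at 2 of 10 in each of the 4 SCi-NCCIT libraries. Of protein-coding genes, 48.8% had one in the parental cells, 58.5% and 54.3% in the libraries without doxycycline, and 51.0% and 54.9% in those with it. The mean was 2.0 factors in each condition (exact permutation test over libraries, two-sided, p = 1.0), in a design where 2 against 2 libraries cannot go below 0.333. The mean depended on the distance and on the TSS used. It was 2.0 without and 1.0 with doxycycline within 10 kb, 8.0 and 7.0 within 50 kb, and 5.0 and 3.5 around every annotated TSS. No share of protein-coding genes was computed at these other settings. No factor had an H3K9me3 peak within 1 kb of its TSS in any of the 5 libraries. Of protein-coding genes, only 2.17% to 4.83% had one there, so an absence at 10 genes is not particular to them. GATA6 and MIXL1 had none within 20 kb in any library, with or without doxycycline.

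TBXT had the strongest H3K9me3 of the 10, in a block about 17 kb downstream of its TSS and beyond the end of the gene. Its highest fold enrichment there was 12.1 in NCCITs without dCas9-KRAB, 14.3 and 14.8 in the libraries without doxycycline, and 14.9 and 11.4 in those with it. A weaker peak 2.1 to 2.6 kb upstream of TBXT was called in both libraries without doxycycline (4.65 and 3.39) and in neither treated one. FOXA2 had H3K9me3 about 6 kb downstream of its TSS, at a fold enrichment of 5.07 in the parental cells, 5.56 and 6.28 without doxycycline and 5.42 in the first treated library, and none within 20 kb in the second. Nearer to the TSS of FOXA2, peaks 1550, 1641 and 1690 bp upstream were called in both libraries without doxycycline (4.64 and 2.95) and in the first with it (4.64). CDX2 had 1 peak in the parental library, 1203 bp upstream (3.62), and 1 in the second treated library, 18949 bp downstream (3.58).

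YY1 peaks were near most factors, at shares close to those of all protein-coding genes. Within 20 kb, 7 and 9 of the 10 factors had one in the libraries without doxycycline and 9 and 10 in those with it, against 76.8% and 78.9%, and 83.2% and 86.8%, of protein-coding genes. The means of 8.0 ± 1.41 and 9.5 ± 0.707 (SD, n = 2) gave p = 0.667 in an exact permutation test (two-sided), which cannot go below 0.333 with 2 against 2 libraries and so cannot show a difference. The YY1 lists were also longer with doxycycline, at 82005 and 115673 against 56370 and 76098 peaks, and with the same number of peaks taken from each library the counts were 8 and 6 factors with doxycycline and 7 and 7 without it. MIXL1 had no YY1 peak within 20 kb in either untreated library and had one at its TSS in both treated ones, 102 and 22 bp downstream, with low fold enrichments of 2.73 and 2.59. The GATA6 intron had a YY1 peak close to the OCT4 summit in the second untreated library and in both treated ones (5.80, 5.14 and 8.85).

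**Figure D4:**
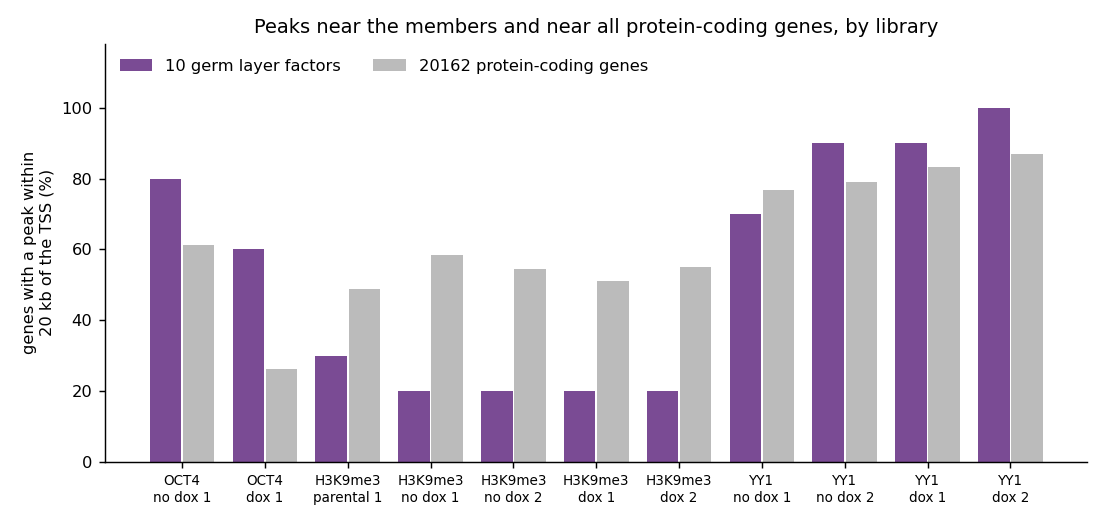
Percentage of the 10 germ layer factors (purple) and of all 20162 protein-coding genes (grey) with a peak, for each ChIP-seq library. A peak counts when it overlaps the window of 20 kb on each side of the TSS. The factors stand above the grey bars for OCT4, at 8 and 6 of 10 factors, and below them in all 5 H3K9me3 libraries, at 2 or 3 of 10, and with 10 factors each gene is worth a large step.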

How the data were processed

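RNA-seq of 6 libraries and ChIP-seq peaks of 11 libraries were used. Groups came from the labels. For RNA, the authors deposited estimated counts and TPM per transcript from kallisto, with no further normalization. For ChIP-seq, adapters were removed by the authors, BWA MEM placed the reads on hg19, reads of low mapping quality and duplicates were dropped, and peaks were called for each library at a 5% FDR. The peak caller is not given in the sources used here. In the deposited lists each summit has a fold enrichment (a ratio) and a p- and q-value as −log10, and no read depth. A table of YY1 HiChIP contacts was left out, because 12 per-sample columns and 4 coverage columns carry names that match no condition.

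Transcripts were placed in genes of GENCODE v44lift37 (166506 of 188753, holding 95.85% to 95.96% of counts). Estimated counts were summed per gene, rounded, filtered with filterByExpr, scaled by TMM and tested with edgeR 4.0.16 (glmQLFit, glmQLFTest, R 4.3.3) over all genes, with Benjamini-Hochberg adjustment and a threshold of 0.05. DESeq2 1.42.0, which the paper names, and limma 3.58.1 on log2(TPM + 1) were alternatives. The pipeline was tested on simulated counts in which some genes were given a log2 change of 1. It recovered 78.9% of these over all genes and 30.8% in the CPM range of the tested factors. In that range 4 of 20 calls were false. Between libraries of a condition, counts differed by 7.43 to 14.6 times what counting alone gives (chi-square per gene), so none was a repeat of another. A peak was assigned to a gene when any part of it overlapped the window of 20 kb on each side of the TSS. The TSS was that of the Ensembl canonical transcript. Intervals from counts or shares cover counting error only. Peaks were compared in Python 3.11.15 with scipy 1.17.1, and sequences were read from GRCh37.

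The factors and gene lists were chosen with earlier results of these data known. The genes named were the 10 factors, for each list the genes called (at most the 4 with the lowest p) and the gene with the highest TPM, and for each tested factor the 2 genes with the highest correlation. Further genes named in the text, among them HES7, AXIN2, PAX3, POU5F1, NODAL and the paralogs given as examples, were chosen after their values were seen.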

Additional observations from a re-analysis of the deposited data

How the results depend on the processing

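GATA6 was called in all 13 RNA alternatives, and MIXL1 was lost in 7 of them with the same direction. In place of 2858 called genes and 2 called factors, counts scaled from TPM by transcript length gave 1640 and 1, limma on log2(TPM + 1) gave 1726 and 1, and DESeq2 gave 1 factor. Leaving out 1 library at a time gave 1396 to 3259 called genes and 1 to 2 called factors. With the replicate block, 3316 genes and 2 factors were called. The replicate numbers were not taken to pair the libraries, since same-numbered libraries correlated at 0.128, 0.08 and −0.001, and not every library correlated best with its own number. The mean number of factors with H3K9me3, 2.0 in each condition at 20 kb, was 1.0 with doxycycline within 10 kb. It was 8.0 without and 7.0 with doxycycline within 50 kb, and 5.0 and 3.5 when every annotated TSS was used. The OCT4 counts and the mean YY1 counts stayed within 1.5 times in all alternatives run, but the second YY1 library with doxycycline went from 10 to 6 factors at the same number of peaks per library. The sign of GATA4 was negative with the block, with limma and without the first doxycycline library. The causes of these differences were not tested. SOX17 and TBXT, with at most 7 counts in a library, and OCT4, with 1 library per condition, are limited by depth and by replication.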
